A study of Homo sapiens with 10 samples.

Results

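H3K27ac-only regions are places in RPMI-8402 cells where a CUT&RUN peak list marked acetylated chromatin and none of the lists for H3K4me3, H3K4me1, MYC or MYCN did. RPMI-8402 is a long-established human line of acute lymphoblastic leukaemia of the T lineage. It was grown in serum-containing medium, and the labels give no drug or genetic change. The regions were selected by overlap alone: an H3K27ac region of set C on chromosomes 1 to 22 or X was kept when it shared no base with any H3K4me3 (set B), H3K4me1 (set C), MYC (sets C and D) or MYCN (set A) region. The rule kept 11969 of 39528 H3K27ac regions (30.3%), out of 121294 regions in the 6 lists. Each list came from 1 library of this 1 line, MYC having 2 lists, so no value below has a replicate error and no condition can be compared. Both MYC files cite 1 common signal track in their headers, and the control that the labels give for MYC in set D is that same library, so the 2 MYC lists are not treated as replicates of each other. "Without" a mark means that no region was listed there, which is not a measurement of zero signal, because the lists hold positions and no read counts.

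H3K27ac is an acetylation of the tail of histone H3, placed mainly by the acetyltransferases p300 and CBP, and it is found at active promoters and active enhancers. Promoters usually carry H3K4me3 as well, and enhancers usually carry H3K4me1, which often precedes acetylation. Acetylated regions without either methylation mark are therefore not the textbook form of a promoter or an enhancer. MYC and MYCN bind mostly at active promoters, and a smaller part of their sites lies at enhancers.

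The 5 lists removed very different numbers of H3K27ac regions. H3K4me3 overlapped 9156 of them, and H3K4me1 removed a further 16328, which left 14044 (35.5%, exact Clopper-Pearson 95% interval 35.1 to 36.0%) with no methylation mark. MYC of set C then removed 1011 and MYC of set D another 1064. MYCN removed none at the end, because all 31 regions without a methylation mark that held MYCN also held MYC. Acetylated regions without a methylation mark thus held MYC or MYCN in 2075 cases (14.8%, 14.2 to 15.4%), and the other 11969 are the H3K27ac-only regions. These intervals cover counting error over the listed regions only.

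The other H3K27ac regions fell into 4 classes that stand beside the H3K27ac-only regions below. There were 9156 with H3K4me3, 12487 with H3K4me1 and neither H3K4me3 nor a factor, 3841 with H3K4me1 and MYC or MYCN but no H3K4me3, and 2075 with MYC or MYCN and no methylation mark. H3K27ac-only regions were thus close in number to the class with H3K4me1 alone. Because regions of 1 list are not replicates and the rule used these same lists, the classes are described without tests.

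The H3K27ac-only regions were narrow. Their median width was 347 bp (quartiles 199 and 580 bp), against 551 bp over all H3K27ac regions (305 and 879 bp). The medians of the other classes were 731 bp with H3K4me3, 886 bp with H3K4me1 and a factor, 553 bp with H3K4me1 alone and 669 bp with a factor alone. The narrowest region of the whole H3K27ac list measured 155 bp, and 4303 H3K27ac-only regions (36.0%) were at most 250 bp wide, where the background over all H3K27ac regions was 19.2%. At the other end, 637 H3K27ac-only regions (5.32%) reached 1000 bp, against 29.5% of the regions with H3K4me3 and 19.1% of all H3K27ac regions. In bases, H3K27ac-only regions covered 5.19 Mb, or 20.1% of the acetylated sequence. Width is tied to the rule, since a wide region meets another list more easily, so these widths describe the selection and support nothing further.

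**Figure D1:**
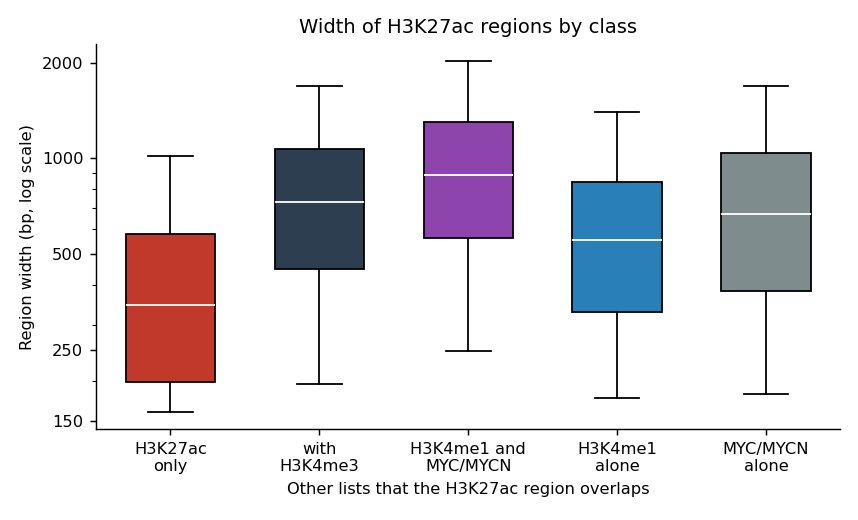
Width in bp on a log scale of the H3K27ac regions of each class, with H3K27ac-only regions on the left. Boxes span the quartiles with the median as a white line and whiskers reach the percentiles 5 and 95. The H3K27ac-only median of 347 bp is below the medians of the 4 other classes, which lie between 553 and 886 bp.

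The share of H3K27ac regions that were H3K27ac-only was smaller at each step in width. It was 63.4% (61.8 to 64.9%) among the 3980 narrowest regions, of 155 to 187 bp, and 30.9% (29.5 to 32.4%) among those of 448 to 551 bp. Among the 3950 widest, of 1272 to 3688 bp, it was 6.33% (5.59 to 7.13%), or 250 regions. A wide acetylated region with none of the other lists was therefore uncommon but present in every width class. Just inside the rule lay 466 H3K27ac-only regions (3.89%) within 100 bp of a region of another list, with a median width of 332.5 bp, and 12 of them touched it without sharing a base. Just outside it lay 943 regions that shared at most 100 bp in all with the other lists, with a median width of 329 bp, and 60 of them shared at most 10 bp.

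The 10 widest H3K27ac-only regions lay on 7 chromosomes and measured 1974 to 2395 bp. On hg19 the widest was chr1:95272399-95274793 (2395 bp), with the nearest H3K4me1 region 4.23 kb away and the nearest H3K4me3 region 263 kb away. The second was chr14:19775787-19778148 (2362 bp), 8.75 kb from H3K4me1 and 995 kb from H3K4me3. The third, chr3:172297335-172299640 (2306 bp), had H3K4me1 at 10.8 kb and H3K4me3 at 55.4 kb. Over all H3K27ac-only regions the median distance to H3K4me3 was 59.8 kb.

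Among the next of the 10, chr7:115994337-115996557 (2221 bp) was the most remote, 143 kb from any region of another list and 209 kb from the next H3K27ac region. The others were chr4:3355104-3357275 (2172 bp), chr10:123873580-123875609 (2030 bp), chr18:35004351-35006373 (2023 bp), chr14:61774190-61776185 (1996 bp), chr18:61997592-61999584 (1993 bp) and chr4:169769401-169771374 (1974 bp). The last of these had H3K4me3 at 14.9 kb and the region at chr14:61774190-61776185 had it at 12.0 kb, and in the other 8 it was between 55.4 and 995 kb away. All 10 had their nearest H3K4me1 region between 3.10 and 143 kb away. Sequences and gene names at these places are not used here, since no genome or annotation of hg19 was at hand.

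The median distance to the nearest region of any other list was 9.31 kb (quartiles 2.71 and 25.8 kb), and 4031 (33.7%, 32.8 to 34.5%) had one within 5 kb. When only the centre base had to be free of the other lists, which left 17649 regions, 55.0% had one within 5 kb. That larger share follows from the rule, since every region it added overlaps another list away from its centre. H3K4me1 was the nearest list for 7878 H3K27ac-only regions (65.8%), H3K4me3 for 2219 (18.5%), MYC of set D for 1013 (8.46%) and MYC of set C for 859 (7.18%). Equally near to more than 1 list were 19 regions. MYCN was the nearest for none. H3K4me1, the mark of enhancers and promoter flanks, has the most regions of the 5 other lists (39503, of median width 324 bp, covering 15.9 Mb). MYC of set D has 18018, H3K4me3 13852 and MYC of set C 9498. MYCN has the fewest, at 895, covering 0.242 Mb. The number of regions in a list enters its distances.

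Within 1 kb, 1596 H3K27ac-only regions (13.3%) had an H3K4me1 region, 146 (1.22%) an H3K4me3 region, 235 (1.96%) MYC of set D, 120 (1.003%) MYC of set C and 3 MYCN. Over all H3K27ac regions that do not overlap the list in question, 11.9% (2577 of 21637) had H3K4me1 within 1 kb and 1.34% (406 of 30372) had H3K4me3. The H3K27ac-only shares for these 2 marks were near this background. For MYC the background was higher, at 4.54% (1228 of 27050) for set D and 1.58% (506 of 31985) for set C. In the class with H3K4me1 alone the MYC shares were 1.73% for set D and 1.07% for set C. Within 5 kb the shares were 28.0% for H3K27ac-only regions against 28.7% over all for H3K4me1, and 5.48% against 6.06% for H3K4me3. Of the 1596 beside H3K4me1, 621 were within 200 bp of it. H3K4me1 lay within 5 kb on 1 side of 3052 H3K27ac-only regions (25.5%) and on both sides of 299 (2.498%), and H3K4me3 on 1 side of 621 (5.19%) and on both sides of 35 (0.292%).

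**Figure D2:**
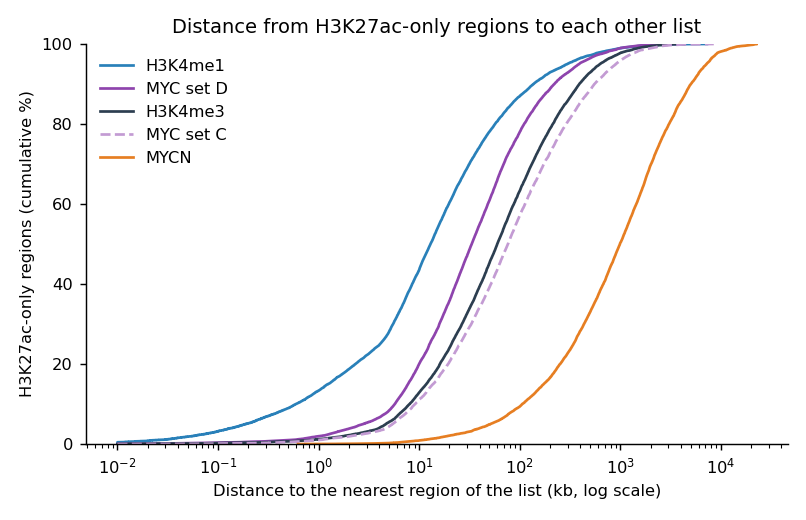
Cumulative percent of the 11969 H3K27ac-only regions against the distance to the nearest region of each other list, in kb on a log scale (distances under 10 bp are drawn at 10 bp). H3K4me1 is nearest, with a median of 13.0 kb, followed by MYC of set D (33.3 kb), H3K4me3 (59.8 kb), MYC of set C (76.4 kb) and MYCN (992 kb).

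Compared with H3K27ac regions that met H3K4me1 alone, H3K27ac-only regions lay farther from the lists that neither class overlaps. The median distance to H3K4me3 was 59.8 kb for H3K27ac-only regions, against 51.4 kb for the class with H3K4me1 alone. To MYC of set C it was 76.4 kb against 53.2 kb, to MYC of set D 33.3 kb against 24.99 kb, and to MYCN 992 kb against 734 kb. All 4 distances were thus longer for H3K27ac-only regions, by ratios that were not tested. Regions with MYC or MYCN and no methylation mark differed in another way. The median distance to H3K4me1 was 13.0 kb for H3K27ac-only regions against 6.85 kb for that class. The median distance to H3K4me3 was shorter for the H3K27ac-only regions (59.8 kb against 67.8 kb). At close range the order was reversed: 5.48% of H3K27ac-only regions had H3K4me3 within 5 kb, against 9.01% of that class.

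The distance to H3K4me3 was longer for H3K27ac-only regions than for those with H3K4me1 alone in each width quartile of the list. Among regions of 155 to 305 bp the medians were 55.3 kb for H3K27ac-only regions and 47.9 kb with H3K4me1 alone, and among regions of 306 to 551 bp they were 60.7 and 51.4 kb. Among those of 552 to 879 bp they were 63.0 and 51.0 kb. In the widest quartile, 880 to 3688 bp, they were 88.6 and 54.7 kb. The gap between the classes was thus widest where the regions were widest, and there the 931 H3K27ac-only regions stood beside 2822 with H3K4me1 alone.

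Some H3K27ac-only regions were very remote. More than 100 kb from every other list lay 906 of them (7.57%, 7.10 to 8.06%), with a median width of 419 bp, against 330 bp for the 1871 (15.6%) within 1 kb of another list. The bands between, at 1 to 5 kb, 5 to 20 kb and 20 to 100 kb, held 2160, 4284 and 2748 regions with medians of 346.5, 338.5 and 348 bp. Width therefore varied little with distance up to 100 kb and was larger beyond it.

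More than 1 Mb from every other list lay 49 H3K27ac-only regions on 13 chromosomes. All 49 had no other H3K27ac region within 12500 bp. Their distance nearly fixes this, since an H3K27ac region of another class overlaps at least 1 of the other lists. Chromosome 13 held 7 of the 49 and chromosomes 5, 18 and X held 6 each. The 5 most remote were chr2:141592671-141592863 (193 bp, 2275.5 kb from any other list), chr13:55984046-55985204 (1159 bp, 2275 kb), chr13:70257891-70258973 (1083 bp, 2180 kb), chr5:25095510-25095688 (179 bp, 2081 kb) and chr13:69729091-69729371 (281 bp, 1861 kb). Both narrow and wide regions were thus among the most remote, and 3 of these 5 lay on chromosome 13.

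The H3K27ac list itself was not used by the rule to place regions relative to each other, so neighbourhoods can be set beside those of all H3K27ac regions. H3K27ac regions were joined into clusters across gaps of up to 12500 bp, the distance commonly used to stitch enhancers. Of the H3K27ac-only regions, 5895 (49.3%, 48.4 to 50.2%) stood alone in their cluster, against a background of 45.7% over all H3K27ac regions and 44.2% (43.6 to 44.8%) of the other H3K27ac regions. The median distance to the next H3K27ac region was 12239 bp for H3K27ac-only regions and 11084.5 bp over all. The share alone was 51.1% in the class with H3K4me3, 41.7% with H3K4me1 alone, 40.4% with H3K4me1 and a factor and 36.0% with a factor alone. The order of the classes differed by width. Among regions of 155 to 305 bp, 48.7% of H3K27ac-only regions stood alone. The shares there were 41.4% with H3K4me3, 47.9% with H3K4me1 and a factor, 39.6% with H3K4me1 alone and 41.4% with a factor alone. By chromosome, the H3K27ac-only share was above that of all H3K27ac regions on 18 chromosomes and below it on 5, with the widest gap of those 5 on chromosome 19 (33.7% against 40.2%).

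The solitary share of H3K27ac-only regions was above that of the other H3K27ac regions in each of the 10 width deciles. The widest gaps were in the narrowest decile, with 50.4% of H3K27ac-only and 39.5% of other regions alone, and in the decile of 982 to 1271 bp, with 54.2% and 45.6%. In the decile of 552 to 661 bp the shares were 48.0% and 46.9%, and there the classes barely differed. Against the other H3K27ac regions as a group, the H3K27ac-only share was thus larger in every decile. The amount differed between deciles and was not tested. Against the class with H3K4me3 this did not hold among wider regions. At 552 to 879 bp, 50.1% of H3K27ac-only regions and 54.9% of those with H3K4me3 stood alone. At 880 to 3688 bp these shares were 53.3% and 53.5%. In both ranges each remaining class had a lower share than H3K27ac-only regions. The excess also differed with the number of H3K4me3 regions in the 1 Mb window. In windows with none, 72.0% of H3K27ac-only regions stood alone, against 65.2% of all H3K27ac regions. With 1 to 3 the shares were 56.4% and 55.6%, with 4 to 9 they were 48.1% and 47.2%. With 10 to 19 they were 38.4% and 37.7%, and with 20 or more 30.2% and 30.8%.

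**Figure D3:**
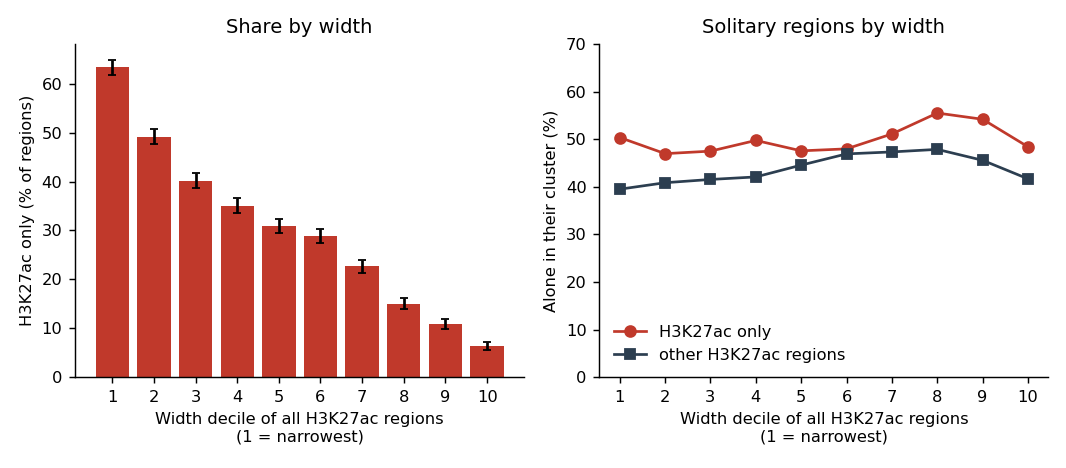
Left, percent of H3K27ac regions that are H3K27ac-only by width decile of the whole list, with exact 95% intervals, from 63.4% in the narrowest to 6.33% in the widest decile. Right, percent with no other H3K27ac region within 12500 bp for H3K27ac-only regions (circles) and other H3K27ac regions (squares), where the H3K27ac-only line is the upper one in all 10 deciles.

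The other H3K27ac-only regions shared a cluster, mostly with regions of other classes. In clusters of H3K27ac-only regions alone there were 1318 (11.01%), spread over 616 clusters, and in 3701 mixed clusters there were 4756 (39.7%). Of the mixed clusters, 2841 (76.8%) held an H3K27ac region with H3K4me1, 2234 (60.4%) one with MYC or MYCN and 1330 (35.9%) one with H3K4me3. The mixed clusters with H3K4me1 held 3709 H3K27ac-only regions (31.0%), joined directly or through a chain of regions to acetylated chromatin with H3K4me1. A mixed cluster holds a region of another class by definition, and 17891 of the 27559 H3K27ac regions of other classes overlapped H3K4me1. These shares are therefore not read as a trait of the H3K27ac-only regions. In clusters of 3 or more, 1606 of the 3194 H3K27ac-only regions (50.3%, 48.5 to 52.0%) were the first or last region, where the background over all H3K27ac regions was 49.4%, a share near the background.

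The share of H3K27ac-only regions was lower in longer clusters. They made up 32.6% (31.9 to 33.3%) of the regions that stood alone, 30.9% in clusters of 2, 28.1% in clusters of 3 or 4, 24.2% in clusters of 5 to 9 and 20.2% (17.4 to 23.3%) in clusters of 10 or more. These longest clusters held 147 H3K27ac-only regions, or 1.23% of them, against a background of 1.84% of all H3K27ac regions. Their median width was 349 bp there and 352 bp among the solitary ones, so that the H3K27ac-only regions of long clusters were not wider. Over the same steps the class with H3K4me1 alone made up 28.8% of the solitary regions and 38.5% of those in clusters of 10 or more.

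The nearest H3K27ac neighbour of an H3K27ac-only region was itself H3K27ac-only in 4212 cases (35.2%, 34.3 to 36.1%), against 28.1% (27.5 to 28.6%) for the other H3K27ac regions and a background of 30.2% over all. The neighbour carried H3K4me1 alone in 30.4% of cases, against 32.1% for the other regions, and H3K4me3 in 19.6%, against 24.2%. H3K27ac-only regions thus met each other as next neighbours more often than other H3K27ac regions met them. These shares are over all chromosomes together. The H3K27ac-only share itself was 52.0% in 1 Mb windows without H3K4me3 and 18.2% in those with 20 or more H3K4me3 regions. Whether neighbours were alike beyond such regional differences was not tested. Along the chromosomes they formed 7799 runs unbroken by an H3K27ac region of another class, of which 5264 held a single region and 163 held 5 or more. The longest run was 17 regions over 1.43 Mb at chr14:71454959-72883784. The next held 14 regions over 0.262 Mb at chr5:75729202-75991341 and 10 regions over 0.267 Mb at chr10:121951556-122218987. Runs of the other classes are not given here, and whether these lengths are unusual was not tested.

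Clusters made of H3K27ac-only regions alone were short. The 2 largest held 5 regions each, at chr19:21786570-21810314 (23745 bp, with regions 155 to 1441 bp wide) and chr6:112110492-112132178 (21687 bp, 155 to 724 bp wide). The next held 4 regions each, at chr14:68610127-68645940 (35814 bp), chr7:158595328-158611707 (16380 bp) and chr21:38847437-38867840 (20404 bp). They differed in their surroundings: the nearest region of another list was 20.4 kb from the chromosome 14 cluster and 15.9 kb from the chromosome 19 cluster, but 0.437 kb from that on chromosome 6.

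The clusters with the most H3K27ac-only regions were of mixed kinds. That at chr14:61764846-61823245 (58400 bp) held 8 among 11 H3K27ac regions, of which 2 had H3K4me3, 1 H3K4me1 and 1 MYC or MYCN, and it includes one of the 10 widest H3K27ac-only regions. At chr12:123446203-123484375 (38173 bp) 6 of 8 were H3K27ac-only, at 159 to 449 bp, and the other 2 had H3K4me3 and a factor. The cluster at chr21:43051762-43203891 (152130 bp) held 5 among 22, with 15 H3K4me1-marked regions, and that at chr7:2103559-2178351 (74793 bp) held 5 among 13, with 8. The fifth, at chr16:67566722-67619418 (52697 bp), held 5 among 8. Some of these clusters were therefore mostly H3K27ac-only, and others were long H3K4me1-marked stretches in which H3K27ac-only regions were a minority.

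H3K27ac-only regions were found on all 23 chromosomes, at 2.56 to 7.04 per Mb. As a share of H3K27ac regions they were most frequent on chromosome 13 (293 of 616, 47.6%, 43.6 to 51.6%), chromosome 18 (277 of 675, 41.0%, 37.3 to 44.9%) and chromosome 14 (427 of 1184, 36.1%, 33.3 to 38.9%). They were least frequent on chromosome 19 (184 of 1226, 15.0%, 13.1 to 17.1%), chromosome 17 (571 of 2348, 24.3%, 22.6 to 26.1%) and chromosome 20 (350 of 1387, 25.2%, 22.97 to 27.6%). Chromosomes 13 and 19, at the 2 ends of this order, held 2.63 and 17.5 H3K4me3 regions per Mb. Chromosome 13 also had the widest H3K27ac-only regions (median 452 bp) and chromosome 19 the narrowest (300.0 bp).

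Over the 23 chromosomes the share of H3K27ac-only regions ran against the density of H3K4me3 regions, with Spearman's rho of -0.79 and Pearson's r of -0.77. Part of this follows from the rule, as regions with H3K4me3 cannot be H3K27ac-only. Counted among H3K27ac regions without H3K4me3, rho was -0.77 and r was -0.57, with 61.7% on chromosome 13 and 31.4% on chromosome 19. In numbers per Mb the relation ran the other way, with rho of 0.62 and r of 0.36. Chromosome 19, with the most H3K4me3 per Mb, was an exception: its 3.12 H3K27ac-only regions per Mb were the 4th lowest, near the 3.06 of chromosome 13. The chromosomes share 1 library and its depth, and the correlations are given as descriptions.

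**Figure D4:**
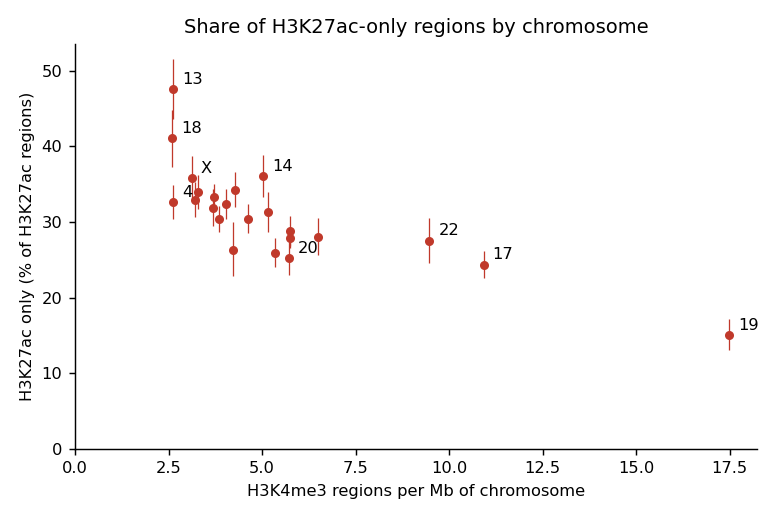
Percent of H3K27ac regions that are H3K27ac-only on each of the 23 chromosomes (points, with exact 95% intervals) against H3K4me3 regions per Mb between the first and last listed region. Chromosome 13 stands highest at 47.6% and chromosome 19 lowest at 15.0%.

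The same order was seen in windows of 1 Mb. In the 509 windows with H3K27ac and no H3K4me3 region, H3K27ac-only regions made up 52.0% (49.7 to 54.3%) of acetylated regions, 989 of 1902. Among H3K27ac regions without H3K4me3, the share was 44.6% in windows with 1 to 3 H3K4me3 regions, 39.1% with 4 to 9, 33.7% with 10 to 19 and 31.9% (30.1 to 33.8%) with 20 or more. Over the same steps the class with H3K4me1 alone made up 26.9%, 36.7%, 42.3%, 45.6% and 46.7%, whereas regions with MYC or MYCN stayed between 18.6 and 21.4%. So, with more H3K4me3 around, acetylated regions outside H3K4me3 more often carried H3K4me1 alone. The share with a factor, with or without H3K4me1, hardly moved.

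The median width of H3K27ac-only regions was 396 bp in windows without H3K4me3, 376 bp with 1 to 3 regions, 339 bp with 4 to 9, 320 bp with 10 to 19 and 287 bp with 20 or more. The share that stood alone was 72.0%, 56.4%, 48.1%, 38.4% and 30.2% in the same order. Over all H3K27ac regions it was 65.2%, 55.6%, 47.2%, 37.7% and 30.8%, so the share differed between windows in nearly the same way for H3K27ac regions as a whole. The median width over all H3K27ac regions was 504.5, 540, 545, 568 and 578 bp, increasing where that of H3K27ac-only regions decreased. The make-up of all H3K27ac regions also changed over these steps. All 1902 lacked H3K4me3 in windows without it, against 2571 of 4502 in windows with 20 or more. How far this make-up enters the widths over all regions was not tested.

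**Figure D5:**
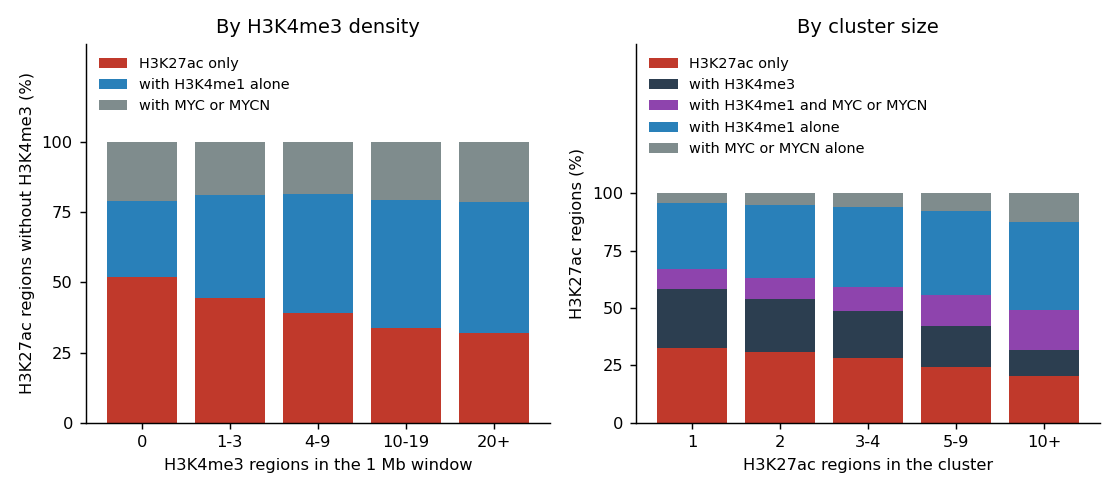
Left, make-up of H3K27ac regions without H3K4me3 by the number of H3K4me3 regions in their 1 Mb window, where the H3K27ac-only part is 52.0% at 0 and 31.9% at 20 or more. Right, make-up of all H3K27ac regions by the number of H3K27ac regions in their cluster, where the H3K27ac-only part is 32.6% of solitary regions and 20.2% in clusters of 10 or more.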

How the data were processed

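Per the labels' protocols, CUT&RUN libraries of RPMI-8402 cells were sequenced with paired ends. The deposited files used here are 6 peak lists of 4 columns. They give positions on hg19, which is the build in the submitters' processing notes, and hold no score, fold or count, so depth is unknown. Per the file headers, H3K4me3 regions came from MACS2, MYC of set C from SEACR in stringent mode, MYC of set D from MACS2 on unpaired reads, and MYCN from cutruntools. No header is present for H3K27ac and H3K4me1, whose caller settings are therefore not stated here. Regions on other sequences than chromosomes 1 to 22 and X were left out, 46 of them from H3K27ac. An overlap is at least 1 shared bp, and a distance counts the bases between 2 regions. IgG libraries were not used here.

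Distances, clusters (gaps up to 12500 bp) and windows (1 Mb, by region centre) were computed with Python 3.11.15, numpy 2.4.6, pandas 2.3.3 and scipy 1.17.1, with figures from matplotlib 3.10.9. The interval code was tested on simulated data, and the 6 overlap counts behind the rule equalled those of bedtools 2.31.1. Shares have exact Clopper-Pearson 95% intervals. No test was made, since each list is 1 library. Regions named are the 10 widest, the 5 most remote, the 5 largest clusters of H3K27ac-only regions alone and the 5 clusters holding most of them; the width limits, the longest runs, the split by H3K4me3 per window and the distances by kb were chosen after the data were seen. The regions studied and the rule were chosen with earlier results of these data known.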

Additional observations from a re-analysis of the deposited data

How the results depend on the processing

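Of 39 values under other settings, 19 stayed within 1.5 times the count or within the 95% interval of the share or median, and 20 did not. Requiring no other list within 1 kb left 10098 regions, and counting only the centre base left 17649. Under these 2 rules the share of H3K27ac regions was 25.5% and 44.6%, the share with another list within 5 kb 21.4% and 55.0%, and the share alone 51.0% and 47.2%, and the median width under the centre rule was 464 bp. The changes in the share within 5 kb follow from the rules themselves. The 1 kb rule dropped regions near another list, and the centre rule added regions that overlap one. Leaving out 1 MYC list gave shares of 31.2 to 32.9%, medians of 351 to 361 bp and, without set D, 13023 regions, and leaving out MYCN changed nothing. Keeping the 19765 H3K27ac regions at or above the median width gave 3316 regions, 16.8% of them, with a median of 728 bp. Of these 71.8% stood alone, against 66.3% of the other wide regions. Joining H3K27ac regions within 1 kb gave 31.9% with another list within 5 kb and 51.5% alone. Another list lay within 1 kb of 15.6% and within 20 kb of 69.5%. Clusters joined within 5 kb left 80.1% of H3K27ac-only regions alone, against 77.9% of the others, and within 25 kb 29.2% against 23.7%. The position relative to genes and the GC content were not run, for want of an hg19 reference. No paired analysis was possible because each list is 1 library. Depth is unknown, so a missing overlap may be a region below a caller's threshold.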

Other observations

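The distances from H3K27ac-only regions to H3K27ac and H3K4me1 regions had a dip at 3 to 4 kb and a second maximum at 5 to 6 kb. Of the H3K27ac-only regions, 594 had their next H3K27ac region at 1 to 2 kb, 339 at 3 to 4 kb and 698 at 5 to 6 kb. Their distances to H3K4me1 held 301 regions at 3 to 4 kb and 458 at 5 to 6 kb. Within the whole lists these bands held 1131 and 2505 regions for H3K27ac, and 898 and 1854 for H3K4me1. For MYC of set D the dip at 3 to 4 kb (161 for H3K27ac-only regions, 217 within the list) was followed by a maximum at 7 to 8 kb for H3K27ac-only regions (297) and at 6 to 7 kb within the list (525). Counts at 3 to 4 kb and at 5 to 6 kb were 307 and 236 within H3K4me3, and 245 and 162 within MYC of set C. The distances from H3K27ac-only regions to these 2 lists went the other way. They held 109 and 172 regions in these bands for H3K4me3, and 82 and 168 for MYC of set C. These bands were chosen after the values were seen, the 12500 bp joining distance lies beyond these maxima, and the cause was not tested.

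The 1 Mb windows with the most H3K27ac-only regions were chr10:121000001-122000000 and chr14:61000001-62000000 with 23 each, of 58 and 38 H3K27ac regions. They were followed by chr1:167000001-168000000 and chr13:99000001-100000000 with 22 each, of 56 and 34, and chr7:2000001-3000000 with 21 of 65. The median over the 2646 windows with H3K27ac was 4. In 225 of the 2646 windows every H3K27ac region was H3K27ac-only, and these 225 windows held 361 regions in all. A window with few H3K27ac regions meets this more easily. Over all H3K27ac regions the H3K27ac-only share was 30.3%, and no expected number of such windows is given here.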
